A study of Homo sapiens with 8 samples.

Results

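The genes described here are 44 genes of endoplasmic reticulum (ER) protein folding and of the unfolded protein response, chosen by gene symbol as a functional group. The brightest probe set over the 8 arrays of the series stood for each gene. A probe set with that symbol alone was found for 39 of the 44 members, and 38 of these were tested among 7696 genes. DNAJB11, SYVN1, SEC61G and OSTC had no probe set in the annotation used, PDIA5 had only 1 shared with other symbols, and the single probe set of ERN1 lay at the lowest value of the data, 2.08, in all 8 arrays. Each of the 38 tested members was over log2 4, the filter on low values, in all 8 arrays, and their values ran from 4.93 to 14.44.

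The series measured the effect of a short hairpin RNA (shRNA) that targets the transcription factor GATA6, known for its role in gut epithelium, in a pair of human cancer cell lines. HUG1N shRNA and HUG1N control arrays came from a gastric line that the labels also call HuG-1. Caco-2 shRNA and Caco-2 control arrays came from Caco-2, a colorectal carcinoma line that takes on enterocyte features in culture. Each of the 4 groups had 2 arrays of a 3′-biased expression chip, and all values are log2. The same treatment note, on infection with the shRNA and puromycin selection, stands on every sample, controls included, so what the controls were given is not stated. Time after infection, the number of hairpins and the origin of the 2 arrays of a group in separate cultures are not stated either, so p-values describe the spread between arrays, which may be technical. In bulk RNA, fewer cells of a type and less RNA per cell cannot be told apart.

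Proteins bound for secretion or for membranes enter the ER through the SEC61 channel and lose their signal peptide. They are then folded by HSP70 and HSP90 chaperones, lectin chaperones and disulfide isomerases. When unfolded protein accumulates, the membrane sensors IRE1 (gene ERN1), ATF6 and PERK (gene EIF2AK3) start the unfolded protein response. Cleaved ATF6 and the spliced form of XBP1 switch on chaperone and degradation genes, while PERK slows translation and raises ATF4, which acts on amino acid and stress genes. Gastric and intestinal epithelia secrete mucus, enzymes and lipoproteins, and so carry a large ER load. The arrays report transcript levels only: neither splicing of the XBP1 message nor activation of the sensor proteins was measured.

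The ER stress response element is the sequence through which ATF6 and XBP1 are known to act. It is shown for the members whose promoter window holds it, so that their calls can be listed in the results that follow. Windows of 250 bases before and 50 bases after each start site were taken from RefSeq (GRCh38.p14) and were found for 40 of the 44 members. The element (ERSE) was searched on both strands as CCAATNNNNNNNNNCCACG, and a shorter form (ERSE-II) as ATTGGNCCACG, and no member's window held both. ERSE was found in 7 of 40 members (17.5%) and in 0.0916% of 27305 genes, and ERSE-II in 3 of 40 members (7.5%) and in 0.0696% of all genes. Both motifs were first derived from promoters of genes like these, so the shares are a description. With 1 mismatch allowed, an alternative, ERSE was in 35% of members and in 1.89% of all genes. Each line runs 5′ to 3′ on the strand of the gene, with the element in capitals. Where the capitals begin with CGTGG, the element reads on the opposite strand.
HSPA5 (chr9:125241371-125241429, minus strand): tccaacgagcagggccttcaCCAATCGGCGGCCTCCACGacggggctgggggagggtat
CRELD2 (chr22:49918534-49918592, plus strand): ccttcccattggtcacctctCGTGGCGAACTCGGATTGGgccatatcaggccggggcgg
PDIA6 (chr2:10812833-10812891, minus strand): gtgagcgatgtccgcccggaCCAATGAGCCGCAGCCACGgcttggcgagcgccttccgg
CANX (chr5:179698758-179698816, plus strand): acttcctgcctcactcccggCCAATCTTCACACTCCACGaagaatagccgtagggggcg
XBP1 (chr22:28800583-28800641, minus strand): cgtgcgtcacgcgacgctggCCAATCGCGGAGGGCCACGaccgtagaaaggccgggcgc
HSP90B1 (chr12:103930196-103930254, plus strand): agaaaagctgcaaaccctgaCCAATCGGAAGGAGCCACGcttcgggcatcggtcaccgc
CALR (chr19:12938364-12938422, plus strand): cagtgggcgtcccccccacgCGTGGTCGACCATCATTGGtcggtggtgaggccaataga
HERPUD1, ERSE-II (chr16:56932005-56932055, plus strand): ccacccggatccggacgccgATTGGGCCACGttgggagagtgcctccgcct
HYOU1, ERSE-II (chr11:119057254-119057304, minus strand): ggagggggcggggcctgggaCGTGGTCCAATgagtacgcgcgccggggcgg
SDF2L1, ERSE-II (chr22:21642094-21642144, plus strand): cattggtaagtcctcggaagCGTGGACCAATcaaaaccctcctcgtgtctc

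Counted in bases from the start site, with minus for upstream, the element of HSPA5 began at -66 and that of XBP1 at -52. HSP90B1 held a second ERSE, beginning at -89, and HYOU1 a second ERSE-II, beginning at -185. A match of letters is not evidence of binding in these cells.

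GATA6, the target, had log2 values of 12.26 and 12.22 in HUG1N shRNA arrays, against 12.54 and 12.45 in HUG1N control arrays. In Caco-2 it had 12.23 and 12.02 in shRNA arrays, against 12.63 and 12.45 in control arrays. The shRNA arrays were the lower ones in both lines, by -0.25 in HUG1N (SE 0.10, limma adjusted p = 0.0879) and -0.42 in Caco-2 (SE 0.10, limma adjusted p = 0.0224), and only the Caco-2 change passed the test, while the lines' changes were not shown to differ (0.16, SE 0.15, limma adjusted p = 0.396). That call was lost without Caco-2 control replicate 1 (-0.32, adjusted p = 0.112) and without Caco-2 shRNA replicate 2 (-0.31, adjusted p = 0.0949). Arrays of a group correlated at 0.995 to 0.997 across genes. Measures of RNA quality differed between groups. The gap between the 3′ and 5′ probe sets of ACTB was 3.73 ± 0.06 in HUG1N shRNA and 2.51 ± 0.23 in HUG1N control arrays, and 1.55 ± 0.13 in Caco-2 shRNA and 1.92 ± 0.02 in Caco-2 control arrays (log2, SD, n = 2 each). The same gap of GAPDH was 0.67 and 0.592 in HUG1N shRNA and 0.373 and 0.437 in HUG1N control arrays, and 0.09 and 0.059 in Caco-2 shRNA and 0.153 and 0.17 in Caco-2 control arrays. Neither gap overlapped between the groups of a line; both were wider with the shRNA in HUG1N and narrower with it in Caco-2. The spiked hybridisation controls averaged 10.90 in HUG1N shRNA and 12.75 in HUG1N control arrays, and 12.40 in Caco-2 shRNA and 12.54 in Caco-2 control arrays. The part of these differences in the results on either line was not tested. All 5 epithelial markers were over log2 4 in every group, and the gastric and intestinal markers differed by line: 3 of 8 intestinal markers were over log2 4 in both HUG1N groups and 7 of 8 in both Caco-2 groups. Gastric markers over log2 4 numbered 5 of 8 in HUG1N shRNA, 6 of 8 in HUG1N control and 3 of 8 in each Caco-2 group. Levels of these markers also differed within a line. The summed level of the gastric list was 14.35 to 14.63 in HUG1N shRNA and 14.96 to 15.03 in HUG1N control arrays, and 8.54 to 8.76 in Caco-2 shRNA and 11.89 to 11.97 in Caco-2 control arrays (log2). CLDN18, a gastric tight junction protein, averaged 8.04 in HUG1N shRNA and 10.75 in HUG1N control arrays, and the gastric trefoil peptide TFF2 averaged 6.23 in Caco-2 shRNA and 10.45 in Caco-2 control arrays. The intestinal sum was 10.72 to 10.73 in HUG1N shRNA and 10.55 to 10.61 in HUG1N control arrays, and 14.38 to 14.43 in Caco-2 shRNA and 15.57 to 15.61 in Caco-2 control arrays. The part of these marker levels in the results on the members was not tested.

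In HUG1N, most of the chaperones and folding enzymes that changed were higher with the shRNA. Of 38 members, 17 were called higher (44.7%, against 24.7% of all 7696 genes) and 4 lower (10.5%, against 23.9% of all genes), where a call is a limma adjusted p under 0.05 over all genes. The median change of the members was 0.34 and that of all tested genes 0.00, on the log2 scale of shRNA minus control, and 29 of the 38 members lay above 0. Calls in either direction covered 55.3% of members and 48.7% of all genes, shares that lie close together, and the gap to the background was in the direction of the calls. Among the 7 members with an ERSE, 5 rose in HUG1N (HSPA5, CRELD2, PDIA6, CANX and XBP1), CALR fell and HSP90B1 was not called. Of all members 44.7% and of all genes 24.7% were called higher, and a difference of these 7 from those shares was not tested. The calls of CANX, XBP1 and CALR were lost when single arrays were left out, as given below. Of the 3 members with an ERSE-II, HERPUD1 rose and HYOU1 and SDF2L1 were not called. Leaving out 1 array at a time gave 13 to 17 higher and 3 to 5 lower calls, and 9 members that had not passed did so without some 1 array. The ACTB, GAPDH and hybridisation control differences above run between the same arrays.

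**Figure D1:**
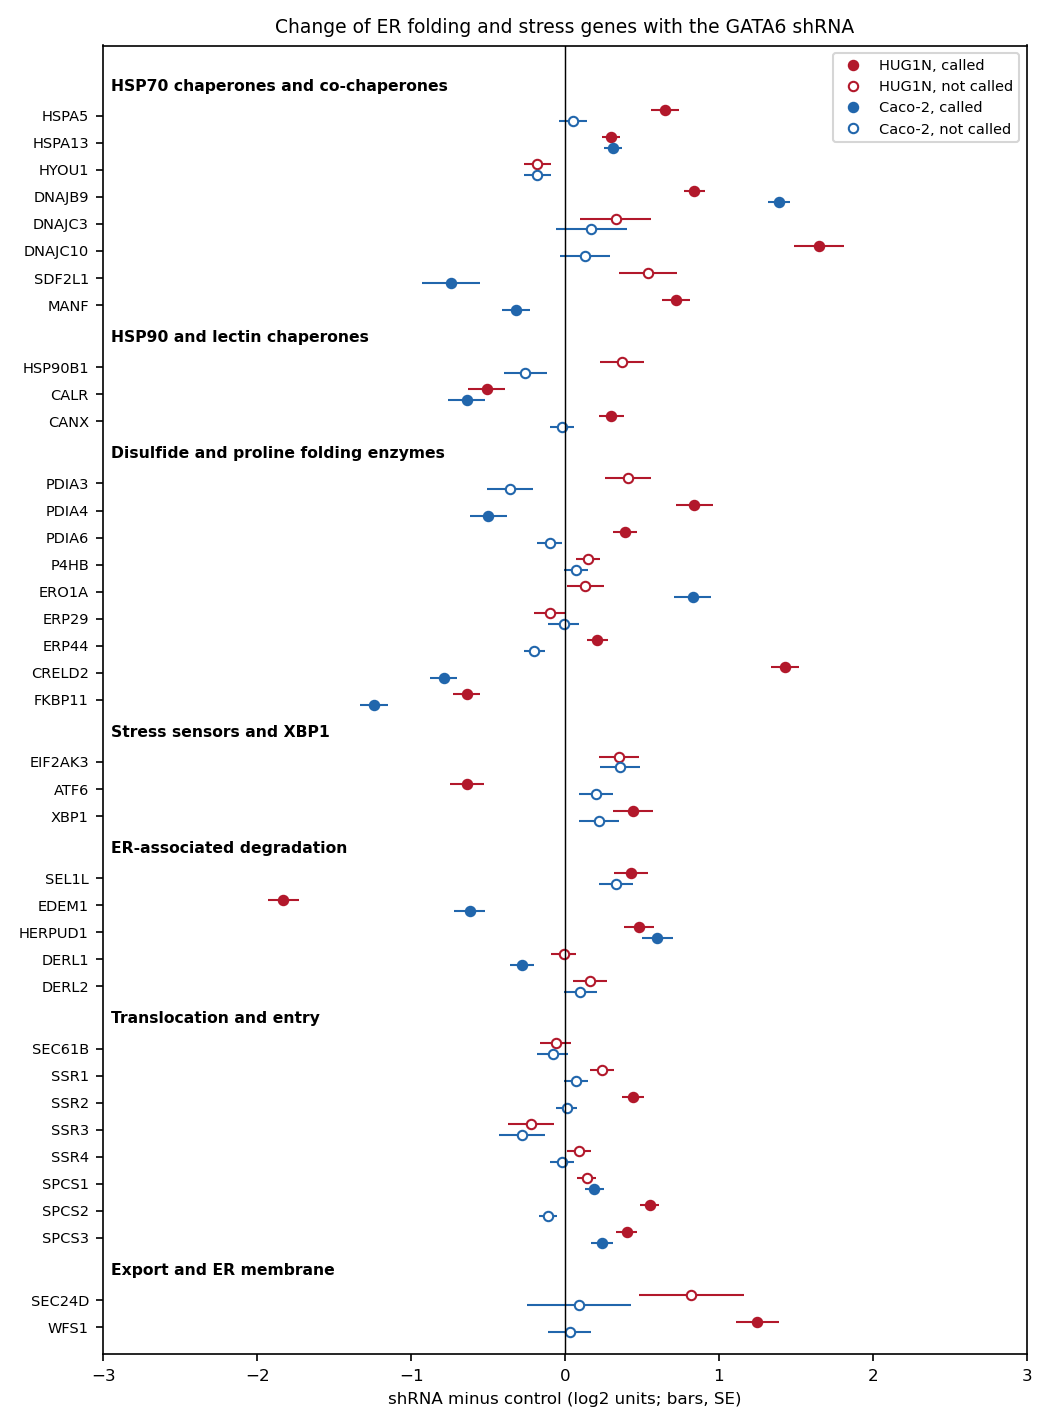
Change with the GATA6 shRNA (log2, shRNA minus control) of the 38 tested members, grouped by role, in HUG1N (red) and in Caco-2 (blue). Points are limma estimates, bars are SE, and filled points passed the test. HUG1N changes run from -1.83 (EDEM1) to 1.65 (DNAJC10) and Caco-2 changes from -1.24 (FKBP11) to 1.39 (DNAJB9).

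Among the HSP70 chaperones and their partners, 5 of 8 tested members rose in HUG1N and none fell, beside 24.7% of all genes called higher and 23.9% lower. The difference from these shares was not tested. HSPA5 (BiP), the main HSP70 of the ER and the usual marker of the response, had 14.44 and 14.27 in HUG1N shRNA arrays, against 13.75 and 13.66 in HUG1N control arrays. Both shRNA arrays were above both controls, and the rise was 1.57-fold (log2 change 0.65, SE 0.09, limma adjusted p = 0.00199). DNAJC10 (ERdj5), a J protein that reduces disulfides of misfolded proteins, had 9.40 and 9.59 with the shRNA, against 8.04 and 7.64 in control arrays. Its rise was the largest among the members, 3.14-fold (SE 0.16 on the log2 scale, limma adjusted p = 0.000524). DNAJB9 (ERdj4), a J protein that holds IRE1 inactive together with HSPA5, had 11.56 and 11.46 with the shRNA and 10.68 and 10.66 in control arrays. That was a rise of 0.84 (SE 0.07, limma adjusted p = 0.000281). MANF, a secreted factor that binds HSPA5, had 10.50 and 10.49 with the shRNA and 9.87 and 9.67 in control arrays, a rise of 0.72 (SE 0.09). HSPA13, a small HSP70-like ATPase, rose by 0.30. The other tested members did not pass: SDF2L1, a partner of the ER J proteins, was at 0.54 (limma adjusted p = 0.0616), DNAJC3, an HSPA5 co-chaperone, at 0.33, and HYOU1, the nucleotide exchange factor of HSPA5, at -0.18. Single arrays decided these too: SDF2L1 passed at 0.76 (adjusted p = 0.0328) and HYOU1 at -0.29 (0.0405) without HUG1N shRNA replicate 2, and DNAJC3 at 0.65 (0.0424) without HUG1N control replicate 1. DNAJC3 is a poor measure here, since its probe set had the same value, 5.58, in 5 of the 8 arrays.

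The HSP90 and lectin chaperones did not move together in HUG1N. CANX, the membrane lectin calnexin, rose by 0.30 (SE 0.08, limma adjusted p = 0.0188), and its soluble relative CALR (calreticulin) fell by 0.51 (SE 0.12, limma adjusted p = 0.0156). The other probe sets of CANX were at 0.48 and 0.98. CALR had 9.48 and 9.27 with the shRNA, against 10.03 and 9.75 in control arrays, with no overlap. HSP90B1, the ER's HSP90, was at 0.37 and did not pass (limma adjusted p = 0.075), although it did without HUG1N shRNA replicate 2 (0.55, adjusted p = 0.0281). Both calls here were lost when single arrays were left out: CALR without HUG1N control replicate 1 or HUG1N shRNA replicate 2 (adjusted p 0.068 to 0.0745), and CANX without HUG1N control replicate 2 or HUG1N shRNA replicate 1 (0.0766 to 0.0815). The probe sets of CALR and HSP90B1, and those of PDIA6 and SPCS3 below, belong to a class of the chip that may pick up related transcripts.

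Of 9 tested enzymes that make disulfides or turn prolines, 4 rose in HUG1N and 1 fell, beside 24.7% of all genes called higher and 23.9% lower. The difference from these shares was not tested. CRELD2, a cysteine-rich protein inducible by ER stress, had 10.34 and 10.25 in HUG1N shRNA arrays, against 8.84 and 8.89 in HUG1N control arrays. The shRNA arrays stood far above the controls, and the rise was 2.69-fold (log2 change 1.43, SE 0.09, limma adjusted p = 0.000126). PDIA4, a disulfide isomerase that works alongside HSPA5, had 12.30 and 12.06 with the shRNA, against 11.29 and 11.38 in control arrays, and rose by 0.84 (SE 0.12, limma adjusted p = 0.00179). PDIA6, an isomerase that also acts on IRE1, rose by 0.39, and ERP44, which retains unpaired cysteine proteins, by 0.21. The ERP44 call was the smallest and was lost without any 1 of 6 arrays, the 4 of HUG1N and the 2 of Caco-2 control (adjusted p 0.0654 to 0.141). FKBP11, a prolyl isomerase of secretory cells, had 11.41 in both shRNA arrays, against 12.06 and 12.03 in control arrays. It fell by 0.64 (SE 0.09, limma adjusted p = 0.00197). PDIA3 (0.41), P4HB (0.15), ERO1A (0.13) and ERP29 (-0.10) did not pass, and PDIA3 did so without either Caco-2 shRNA array (adjusted p = 0.0412).

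Of the sensors, ATF6 fell in HUG1N and EIF2AK3 was not called. ATF6, the sensor that is itself a transcription factor once cleaved, had 8.42 and 8.46 in HUG1N shRNA arrays and 9.11 and 9.05 in HUG1N control arrays. It fell by 0.64 on the log2 scale (SE 0.11, limma adjusted p = 0.0041). EIF2AK3 (PERK) had 9.51 and 9.80 with the shRNA and 9.41 and 9.20 in control arrays. Its shRNA arrays were the higher ones, but the change of 0.35 did not pass (95% interval 0.04 to 0.66, limma adjusted p = 0.0637). It passed without HUG1N shRNA replicate 1 (0.49, adjusted p = 0.0332), with quantile normalization (0.39, adjusted p = 0.0438) and with trend and robust variance (adjusted p = 0.0355). XBP1 had 9.90 and 10.18 with the shRNA and 9.73 and 9.47 in control arrays, a rise of 0.44 (SE 0.13, limma adjusted p = 0.031). The XBP1 call was lost without 1 of 6 arrays (all 4 of Caco-2, HUG1N control replicate 2 or HUG1N shRNA replicate 2; adjusted p 0.0531 to 0.139). ERN1 gave no reading, as stated above.

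The genes of ER-associated degradation, which returns misfolded proteins to the cytosol, went both ways in HUG1N. EDEM1, a lectin that delivers misfolded glycoproteins to this route and a known XBP1 target, had 7.14 and 7.24 in HUG1N shRNA arrays, against 9.10 and 8.95 in HUG1N control arrays. It was 3.56-fold lower with the shRNA (log2 change -1.83, SE 0.10, limma adjusted p = 8.36e-05), the largest fall among the members. HERPUD1, a membrane scaffold of the degradation complex, rose by 0.48 (SE 0.10, limma adjusted p = 0.00757), and SEL1L, the adaptor of its ubiquitin ligase, by 0.43 (SE 0.11, limma adjusted p = 0.0189). The SEL1L call was lost without HUG1N control replicate 2 or either HUG1N shRNA array (adjusted p 0.0585 to 0.0717), and with the mean of its probe sets SEL1L was at 0.11 (adjusted p = 0.434). DERL1 (-0.01) and DERL2 (0.16), membrane proteins of the exit channel, did not pass.

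Of 8 tested genes of ER entry, 3 rose in HUG1N and none fell. Of all genes 24.7% were called higher and 23.9% lower, and the difference from these shares was not tested. The 3 entry genes that rose were SPCS2 (0.55, SE 0.06) and SPCS3 (0.40, SE 0.07), subunits of the signal peptidase, and SSR2 (0.44, SE 0.07), a subunit of the translocon-associated complex. Their largest limma adjusted p was 0.00515. The other 5 lay between -0.22 (SSR3) and 0.24 (SSR1). SSR1 passed without HUG1N shRNA replicate 1 (0.33, adjusted p = 0.0269), and SSR3 without either Caco-2 shRNA array (adjusted p = 0.0381). Of the remaining pair, WFS1 (wolframin), an ER membrane protein of calcium handling, had 7.08 and 6.71 with the shRNA, against 5.74 and 5.55 in control arrays. It rose 2.38-fold (log2 change 1.25, SE 0.14, limma adjusted p = 0.000926). SEC24D, a cargo subunit of the COPII export coat, had 9.59 and 10.69 with the shRNA and 9.41 and 9.22 in control arrays. With an SD of 0.78 between its shRNA arrays, the change of 0.82 did not pass (limma adjusted p = 0.0887). Without HUG1N shRNA replicate 1 the change was 1.37 and passed (adjusted p = 0.00384), as did its difference from the Caco-2 change (1.28, adjusted p = 0.00997).

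**Figure D2:**
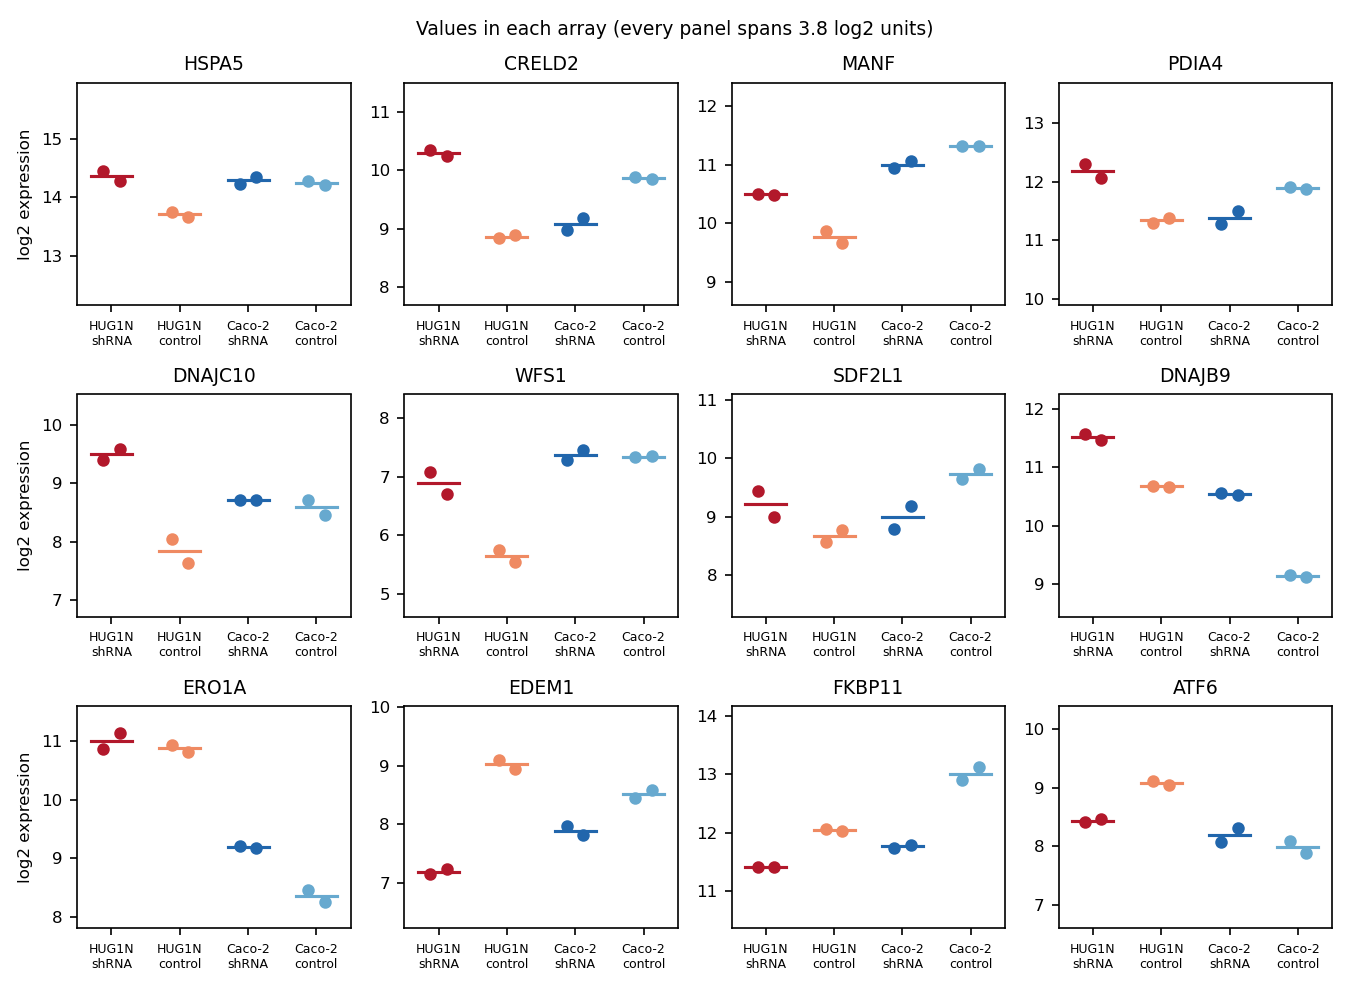
Log2 value in each of the 8 arrays (points) and the mean of each group (bars) for 12 members, with the shRNA group left of its control in each line; every panel spans the same number of log2 units. CRELD2 is higher with the shRNA in HUG1N (10.29 against 8.86) and lower in Caco-2 (9.07 against 9.86), whereas DNAJB9 is higher and EDEM1 lower with the shRNA in both lines.

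In Caco-2, the members were called about as often as other genes, in both directions. With the shRNA, 6 of 38 were called higher (15.8%, against 19.5% of all genes) and 8 lower (21.1%, against 19.2%). The median change of the members was 0.00, as was that of all genes. The rises were of DNAJB9, ERO1A, HERPUD1, HSPA13, SPCS3 and SPCS1, and the falls of FKBP11, CRELD2, SDF2L1, CALR, EDEM1, PDIA4, MANF and DERL1. Of the 7 members with an ERSE none rose, CRELD2 and CALR fell, and 5 were not called. A difference of these 7 from the shares of all genes was not tested. Of the 3 with an ERSE-II, HERPUD1 rose, SDF2L1 fell and HYOU1 was not called. The counts were 3 higher and 4 lower without Caco-2 control replicate 1, and 3 higher and 3 lower without Caco-2 control replicate 2. Calls in either direction covered 36.8% of members and 38.7% of all genes.

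Among the HSP70 chaperones and partners in Caco-2, DNAJB9 stood out, with 10.55 and 10.52 in Caco-2 shRNA arrays, against 9.16 and 9.12 in Caco-2 control arrays. It rose 2.63-fold (log2 change 1.39, SE 0.07, limma adjusted p = 3.89e-05). HSPA13 had 10.11 and 10.10 with the shRNA and 9.79 and 9.80 in control arrays, a rise of 0.31 (limma adjusted p = 0.0106). HSPA5 had 14.22 and 14.35 with the shRNA and 14.28 and 14.20 in control arrays. Its groups overlapped, and the change of 0.05 had a 95% interval of -0.17 to 0.27. SDF2L1 had 8.79 and 9.19 with the shRNA and 9.65 and 9.81 in control arrays, a fall of 0.74 (SE 0.19, limma adjusted p = 0.0266). MANF had 10.94 and 11.07 with the shRNA and 11.33 and 11.32 in control arrays, a fall of 0.32 (limma adjusted p = 0.034). Several of these calls rested on single arrays. They were lost for HSPA13 without either Caco-2 control array (adjusted p 0.0505 to 0.0532), for SDF2L1 without either Caco-2 control array or Caco-2 shRNA replicate 1 (0.0767 to 0.128), and for MANF without any 1 of the 4 Caco-2 or 2 HUG1N shRNA arrays (0.0519 to 0.145). CALR had 9.62 and 9.66 with the shRNA and 10.20 and 10.35 in control arrays, a fall of 0.64 (limma adjusted p = 0.00919) that was lost without Caco-2 control replicate 2 (0.0583). CANX and HSP90B1 were at -0.02 and -0.26 and did not pass.

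Of the folding enzymes in Caco-2, FKBP11 had 11.75 and 11.80 in Caco-2 shRNA arrays, against 12.90 and 13.13 in Caco-2 control arrays, and was 2.35-fold lower (log2 change -1.24, SE 0.09, limma adjusted p = 0.000205). CRELD2 had 8.97 and 9.18 with the shRNA and 9.88 and 9.85 in control arrays, a fall of 0.79 (SE 0.09, limma adjusted p = 0.00106). PDIA4 had 11.27 and 11.50 with the shRNA and 11.90 and 11.87 in control arrays, a fall of 0.50 (SE 0.12, limma adjusted p = 0.0174). Both groups of each of these enzymes were apart, but the PDIA4 call was lost without either Caco-2 control array or Caco-2 shRNA replicate 1 (adjusted p 0.0721 to 0.0831). ERO1A, the oxidase that recharges the disulfide isomerases and is induced by hypoxia, went the other way. It had 9.21 and 9.18 with the shRNA and 8.46 and 8.26 in control arrays, a rise of 0.83 (SE 0.12, limma adjusted p = 0.00284). The other enzymes lay between -0.36 (PDIA3) and 0.07 (P4HB) and did not pass, except that PDIA3 passed without Caco-2 shRNA replicate 2 (-0.55, adjusted p = 0.0465).

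Neither tested sensor passed in Caco-2 in the main test, though both did under some alternatives. ATF6 had 8.07 and 8.32 in Caco-2 shRNA arrays and 8.09 and 7.89 in Caco-2 control arrays, with overlap. Its change was 0.20 (limma adjusted p = 0.188). With the mean of its probe sets ATF6 was at 0.42 and passed (limma adjusted p = 0.0298). EIF2AK3 had 9.49 and 9.32 with the shRNA and 9.07 and 9.01 in control arrays, a change of 0.36 (limma adjusted p = 0.0684), close to its value in HUG1N and likewise short of the threshold. It passed without either HUG1N shRNA array (adjusted p = 0.0467), with the line fitted alone (0.048) and with trend and robust variance (0.037). XBP1 had 11.22 and 11.15 with the shRNA and 11.00 and 10.93 in control arrays, a change of 0.22 (95% interval -0.09 to 0.53). In the degradation group, HERPUD1 had 12.53 and 12.49 with the shRNA and 11.95 and 11.87 in control arrays, a rise of 0.60 (SE 0.10, limma adjusted p = 0.00441). EDEM1 had 7.97 and 7.81 with the shRNA and 8.44 and 8.58 in control arrays, a fall of 0.62 (SE 0.10, limma adjusted p = 0.0043). DERL1 fell by 0.28, and SEL1L was at 0.33 without passing, unless either HUG1N control array was left out (adjusted p = 0.0229). Among the entry genes that did not pass, SSR3 did so without Caco-2 shRNA replicate 1 (-0.53, adjusted p = 0.00861). The signal peptidase subunit SPCS3 had 11.31 and 11.26 with the shRNA and 11.04 and 11.06 in control arrays, a rise of 0.24. Its partner SPCS1 had 13.29 and 13.31 with the shRNA and 13.10 and 13.12 in control arrays, a rise of 0.19. These small calls rested on single arrays: that of DERL1 was lost without either Caco-2 control array or Caco-2 shRNA replicate 2 (adjusted p 0.124 to 0.144), that of SPCS3 without any 1 of 6 arrays, the 4 of Caco-2 and the 2 of HUG1N control (0.0583 to 0.148), and that of SPCS1 without any 1 of the 8 arrays (0.054 to 0.163).

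Set side by side, 10 members were called in both lines. HSPA13, DNAJB9, HERPUD1 and SPCS3 were higher with the shRNA in both (10.5% of members, against 6.29% of all genes), and CALR, FKBP11 and EDEM1 lower in both (7.89%, against 6.89%). MANF, PDIA4 and CRELD2 were higher in HUG1N and lower in Caco-2 (7.89%, against 3.44%). No member was lower in HUG1N and higher in Caco-2 (3.86% of all genes were), and 13 were called in neither line (34.2%, against 33.1%). The shares of members called in both lines rest on 3 or 4 genes each, and their difference from the background was not tested. Of these genes, HSPA13, SPCS3, CALR, MANF and PDIA4 lost their Caco-2 call when some single arrays were left out, as given above.

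**Figure D3:**
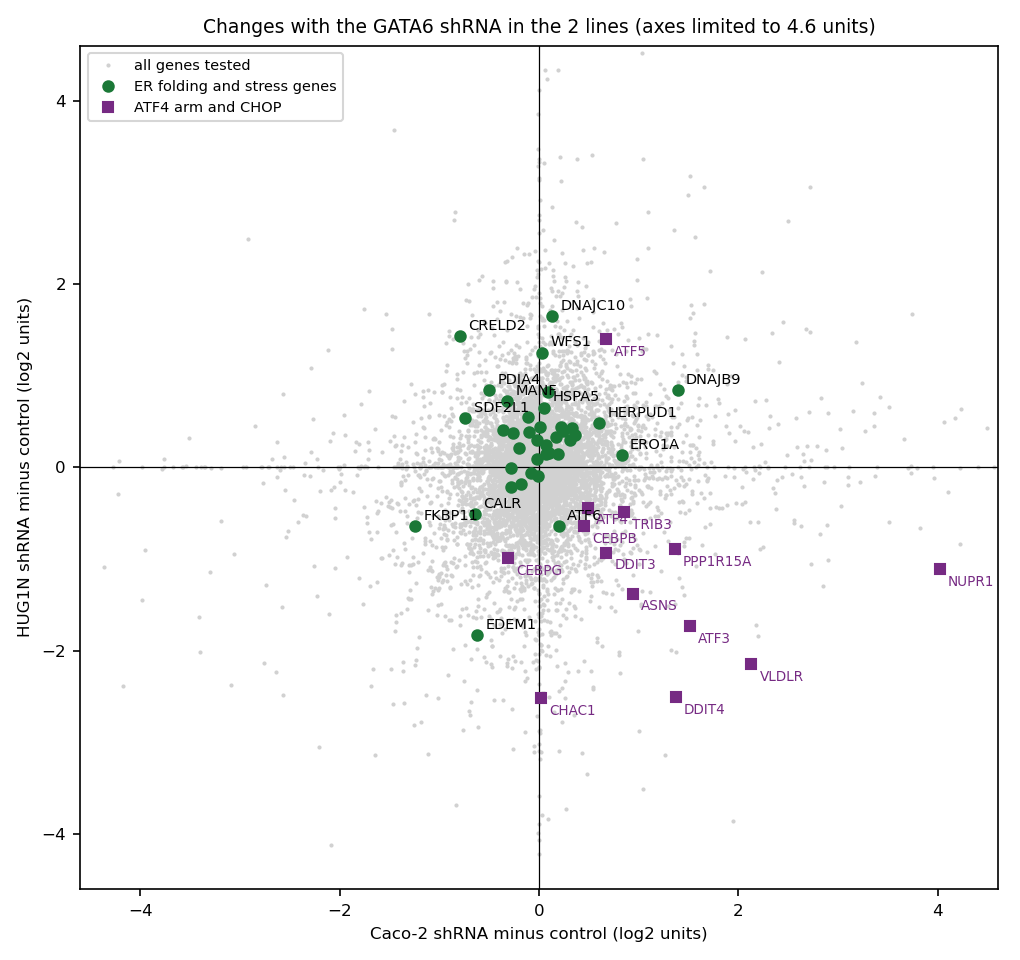
Change with the shRNA in Caco-2 (x axis) and in HUG1N (y axis), log2, for the 38 tested members (green circles) and 13 genes of the ATF4 branch (purple squares) over all tested genes (grey). CRELD2, PDIA4 and MANF lie to the upper left, DNAJB9 to the upper right, and EDEM1, FKBP11 and CALR to the lower left, while most ATF4 branch genes lie to the lower right; 34 genes lie outside the axes.

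The difference between the lines was tested directly, as the HUG1N change minus the Caco-2 change. It was called for 18 of 38 members (47.4%, against 44.9% of all genes), 14 of them toward HUG1N (36.8%, against 22.2%) and 4 toward Caco-2 (10.5%, against 22.7%). CRELD2 differed most, with changes of 1.43 in HUG1N and -0.79 in Caco-2 and a difference of 2.22 (SE 0.12, limma adjusted p = 0.000111). DNAJC10 differed by 1.52 (SE 0.22), PDIA4 by 1.34 (SE 0.16), SDF2L1 by 1.28 (SE 0.27), WFS1 by 1.22 (SE 0.20) and MANF by 1.04 (SE 0.13), with limma adjusted p of at most 0.0115. For DNAJC10 and WFS1 the Caco-2 change itself was near 0, at 0.13 and 0.03. A second probe set of DNAJC10 was at 0.52 in Caco-2, and its difference between the lines was smaller, 0.79. With the mean of its probe sets DNAJC10 was called higher in Caco-2 (0.33, limma adjusted p = 0.0262). HSPA5 differed by 0.60 (SE 0.13, limma adjusted p = 0.0111), as did FKBP11 by 0.60, which fell less in HUG1N than in Caco-2.

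Further differences toward HUG1N were those of PDIA3 (0.77), SPCS2 (0.67), HSP90B1 (0.63), PDIA6 (0.50), SSR2 (0.43) and ERP44 (0.41). With the mean of its probe sets, ERP44 was at 0.09 and did not pass (adjusted p = 0.452). CANX did not pass in the main test (0.33, limma adjusted p = 0.0517), but did with the mean of its probe sets (0.54, limma adjusted p = 0.0218). PDIA3 and HSP90B1 had not passed in either line alone, and both lost the call without any 1 of 6 arrays (adjusted p 0.0616 to 0.0845 and 0.0866 to 0.127). For PDIA3 the exceptions were Caco-2 control replicate 1 and Caco-2 shRNA replicate 2, and for HSP90B1 they were Caco-2 shRNA replicate 2 and HUG1N shRNA replicate 2. Toward Caco-2 the differences were of EDEM1 (-1.21, SE 0.14), ATF6 (-0.84, SE 0.15), ERO1A (-0.71, SE 0.17) and DNAJB9 (-0.56, SE 0.09). The ERO1A call was lost without Caco-2 control replicate 2, Caco-2 shRNA replicate 1 or HUG1N control replicate 1 (0.0529 to 0.0556). The lines' changes of HSPA13, HYOU1, EIF2AK3 and XBP1 were not shown to differ, with 95% intervals of the difference of -0.23 to 0.20, -0.30 to 0.31, -0.45 to 0.43 and -0.22 to 0.66.

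In control cells alone, the lines differed in the transcript levels of most members. The HUG1N control arrays used here also serve as the controls of the HUG1N comparison, so the results that follow share arrays with those above. Of 38 members, 10 were higher in HUG1N control than in Caco-2 control arrays (26.3%, against 37.1% of all genes) and 23 were lower (60.5%, against 41.3%). In either direction 86.8% of members and 78.4% of all genes were called. The median difference was -0.39 over the members and -0.05 over all genes (log2, HUG1N control minus Caco-2 control). Most chaperones and disulfide enzymes were on the lower side: 6 of 8 HSP70-related genes and 7 of 9 folding enzymes.

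WFS1 had 5.74 and 5.55 in HUG1N control arrays, against 7.33 and 7.35 in Caco-2 control arrays, 3.24-fold lower (SE 0.14 on the log2 scale, limma adjusted p = 5.01e-05). MANF had 9.87 and 9.67 in HUG1N control and 11.33 and 11.32 in Caco-2 control arrays, a difference of -1.55 (SE 0.09). XBP1 had 9.73 and 9.47 in HUG1N control and 11.00 and 10.93 in Caco-2 control arrays, a difference of -1.36 (SE 0.13). These groups lay far apart, as did those of SPCS2 (12.40 and 12.41, against 13.56 and 13.50), SDF2L1 (8.57 and 8.78, against 9.65 and 9.81) and CRELD2 (8.84 and 8.89, against 9.88 and 9.85). HSPA5 was lower as well, by -0.54 (SE 0.09, limma adjusted p = 0.00162).

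A few members ran against this. ERO1A had 10.94 and 10.82 in HUG1N control arrays, against 8.46 and 8.26 in Caco-2 control arrays, 5.74-fold higher (SE 0.12 on the log2 scale, limma adjusted p = 3.64e-06). SSR3, a subunit of the translocon-associated complex, had 9.86 and 9.87 in HUG1N control and 7.47 and 7.43 in Caco-2 control arrays, 5.33-fold higher. The remaining leaders were SEC24D (9.41 and 9.22, against 7.56 and 7.47), DERL1 (10.86 and 10.98, against 9.19 in both Caco-2 control arrays), DNAJB9 (10.68 and 10.66, against 9.16 and 9.12) and ATF6 (9.11 and 9.05, against 8.09 and 7.89). Within one complex the members did not share a direction: SSR1 (0.63) and SSR3 (2.42) were higher, SSR2 (-0.22) was lower, and SSR4 (-0.16) did not pass. EIF2AK3 did not pass either, at 0.26 (95% interval -0.05 to 0.57). A few calls rested on single arrays: that of DERL2 was lost without any 1 of the 4 control arrays, that of SSR2 without any of them but HUG1N control replicate 2, that of ERP29 without any but Caco-2 control replicate 1, and that of CALR without replicate 2 of either control (adjusted p 0.0646 to 0.142 over these).

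**Figure D4:**
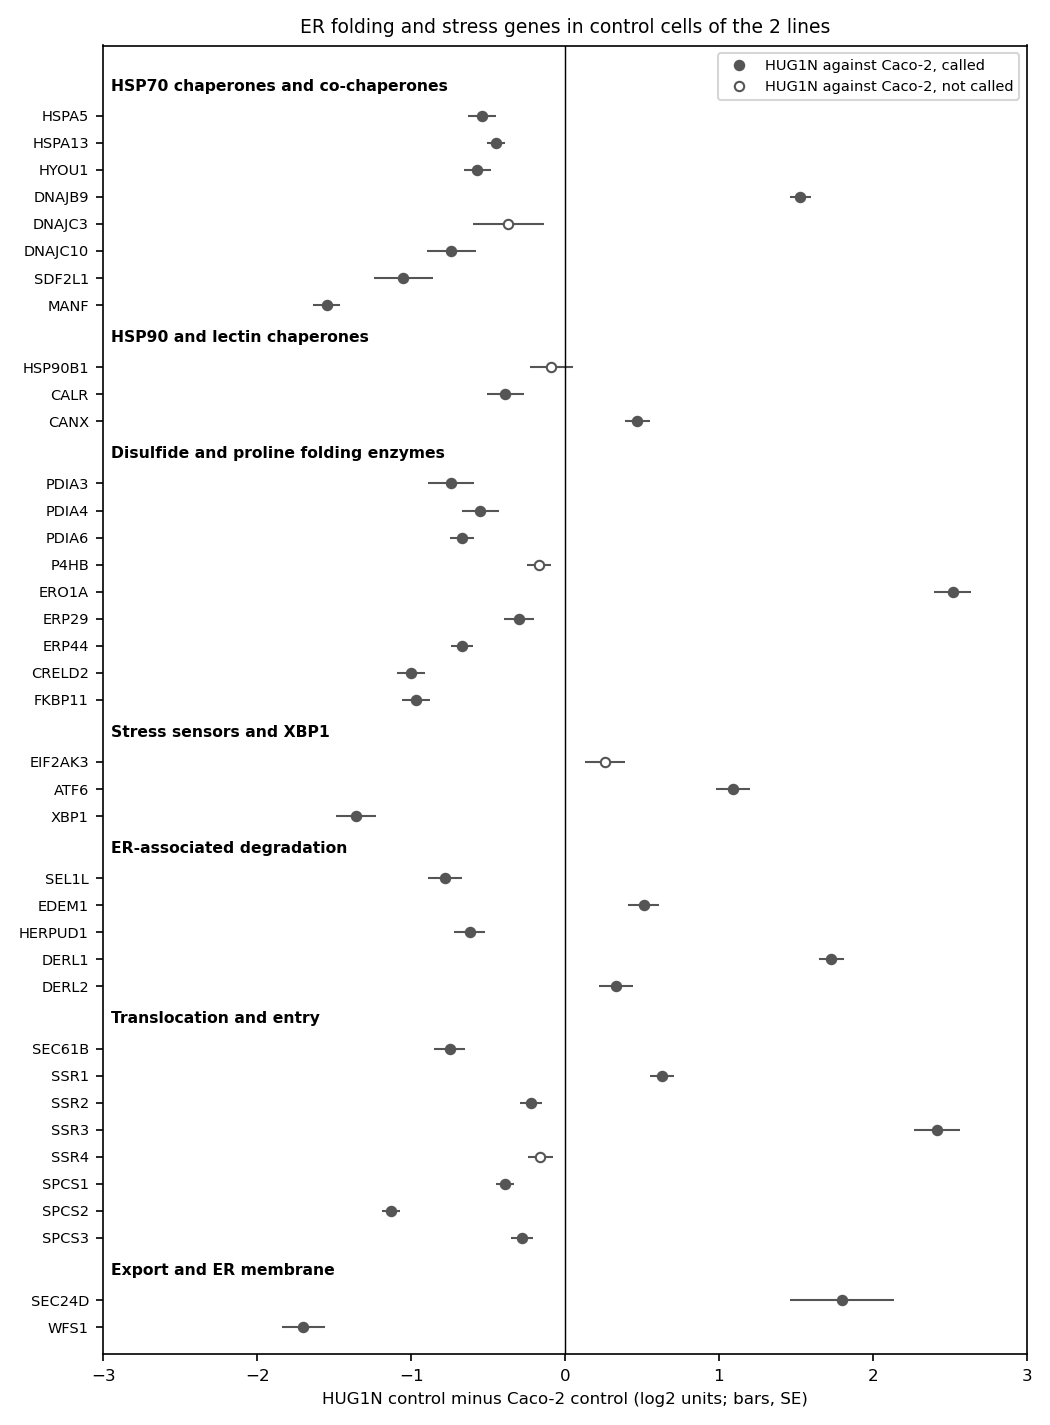
Difference between the lines' controls (log2, HUG1N control minus Caco-2 control) of the 38 tested members, grouped by role, with bars of SE and filled points for those that passed the test. ERO1A (2.52) and SSR3 (2.42) lie highest in HUG1N and WFS1 (-1.70) and MANF (-1.55) lowest.

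The ATF4 branch of the response, represented by a separate list of 15 genes with 13 tested, moved mostly in opposite directions in the lines. The list was chosen with earlier results of these data known, so its shares are a description and their difference from the background was not tested. Results for the list without single arrays or under other settings are not given. In HUG1N 1 gene was higher (7.69%, against 24.7% of all genes) and 11 were lower (84.6%, against 23.9%) with the shRNA, with a median change of -0.99. In Caco-2 10 were higher (76.9%, against 19.5%) and 1 was lower (7.69%, against 19.2%), with a median of 0.85, beside medians of 0.00 over all genes in both lines. The difference between the lines was called for all 13, 12 toward Caco-2 (92.3%, against 22.7% of all genes) and 1 toward HUG1N (7.69%, against 22.2%). Some counted calls rest on low or uneven values. VLDLR had 2.32 and 2.17 and NUPR1 3.03 and 4.15 in Caco-2 control arrays, and DDIT4 had 9.01 and 11.25 in HUG1N shRNA arrays. Beside the counts of this list, the ER members described above had 17 higher and 4 lower in HUG1N and 6 higher and 8 lower in Caco-2.

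ASNS, asparagine synthetase and a standard ATF4 target, had 10.72 and 10.69 in HUG1N shRNA arrays, against 12.13 and 12.04 in HUG1N control arrays. In Caco-2 it had 10.59 and 10.66 with the shRNA, against 9.75 and 9.62 in control arrays. Its changes of -1.38 (SE 0.08, limma adjusted p = 9.75e-05) and 0.94 (SE 0.08, limma adjusted p = 0.000341) ran in opposite directions with no overlap in either line. PPP1R15A (GADD34), which reverses the translation block set by PERK, changed by -0.89 in HUG1N and 1.36 in Caco-2 (SE 0.09 each). CHAC1, a glutathione-degrading enzyme downstream of ATF4, fell in HUG1N (limma adjusted p = 0.000239), with 4.16 and 4.54 in shRNA arrays, against 7.12 and 6.62 in control arrays. It lay at 4.09 to 4.13 in the 4 Caco-2 arrays, so the HUG1N shRNA values are near the lowest of this probe set and no fold is given. CEBPG, a partner of ATF4, fell by 0.99 in HUG1N and by 0.31 in Caco-2.

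ATF5, a factor related to ATF4, rose by 1.40 in HUG1N (SE 0.10, limma adjusted p = 0.000188) and by 0.67 in Caco-2, and was the only gene of this list higher with the shRNA in HUG1N. ATF4 and DDIT3 (CHOP), chosen for mention after their values were seen, followed the list. ATF4 changed by -0.44 in HUG1N and 0.49 in Caco-2 (SE 0.07 each), and DDIT3 by -0.93 and 0.67 (SE 0.13 each), all 4 with limma adjusted p of at most 0.00788. Between the controls, 12 of the 13 genes were higher in HUG1N (92.3%, against 37.1% of all genes) and 1 lower (7.69%, against 41.3%). Their median difference was 2.29. Of the 38 tested ER members, of all roles, 10 were higher (26.3%) and 23 lower (60.5%). ATF3, a stress-induced repressor, had 10.44 and 10.28 in HUG1N control arrays, against 5.44 and 5.78 in Caco-2 control arrays.

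Calls with the shRNA went in both directions in the other lists of the pathway, except cytosolic heat shock genes in HUG1N, called only lower. The median changes with the shRNA were near 0. In HUG1N, 6 of 15 tested genes of further folding enzymes and the lectin cycle were higher (40%, against 24.7% of all genes) and 3 lower (20%, against 23.9%) with the shRNA. UGGT2, a glucosyltransferase that checks glycoprotein folding, led the rises by p (1.13, SE 0.15). CLGN, a lectin chaperone related to calnexin, led the falls by p, with 2.63 and 2.81 in HUG1N shRNA arrays, against 4.67 and 4.45 in HUG1N control arrays. It lay at 2.86 to 3.22 in the Caco-2 arrays. The HUG1N shRNA values are thus near the lowest value of the data, 2.08, and no size is given. In Caco-2 1 gene of this list was higher (6.67%, against 19.5%) and 3 were lower (20%, against 19.2%). Further translocation and N-glycosylation genes had 8 higher (42.1%) and 3 lower (15.8%) of 19 in HUG1N, where STT3A, a catalytic subunit of oligosaccharyltransferase, rose by 1.18 (SE 0.08). In Caco-2 they had 3 higher (15.8%) and 4 lower (21.1%), and TRAM1, a translocon helper, rose by 1.01 (SE 0.07). Further degradation genes had 4 higher (30.8%) and 2 lower (15.4%) of 13 in HUG1N, with UBE2J1, the ubiquitin-conjugating enzyme of this route, at 1.11 (SE 0.07), and 3 higher (23.1%) and 2 lower (15.4%) in Caco-2.

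Of all genes, 24.7% were called higher and 23.9% lower in HUG1N, and 19.5% and 19.2% in Caco-2. Differences of the lists from these shares were not tested. Genes of ER export and retrieval had 5 higher (29.4%) and 2 lower (11.8%) of 17 in HUG1N and 2 higher and 2 lower (11.8% each) in Caco-2. Among 15 further stress transducers, 5 were higher (33.3%) and 6 lower (40%) in HUG1N, and 3 were higher and 3 lower (20% each) in Caco-2. ATF6B, the paralogue of ATF6, was called lower in HUG1N (limma adjusted p = 6.93e-05). It had 2.64 and 2.59 in HUG1N shRNA arrays, against 4.71 and 4.78 in HUG1N control arrays, and 2.19 to 2.68 in the Caco-2 arrays. The shRNA values are thus near the lowest value of the data, 2.08, and no size is given. Of 11 tested cytosolic heat shock genes, none was higher and 5 were lower (45.5%, against 23.9% of all genes) in HUG1N, and 2 were higher and 2 lower (18.2% each) in Caco-2. HSPB1, the small heat shock protein HSP27, fell by 2.54 in HUG1N (SE 0.12) and by 0.45 in Caco-2 (SE 0.12). The median changes of these 6 lists lay between -0.17 and 0.22 in HUG1N and between -0.09 and 0.04 in Caco-2. Between the controls, the median was 1.23 for cytosolic heat shock genes (63.6% higher in HUG1N and 27.3% lower). It was 1.04 for the further stress transducers (53.3% and 33.3%). Of all genes 37.1% were higher and 41.3% lower there, with a median of -0.05. The other lists lay between -0.25 and 0.22.

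Plasma cells, which are rich in this machinery, were checked by 7 markers. JCHAIN, MZB1, IRF4, PRDM1 and TNFRSF17 were under log2 4 in all 8 arrays. SDC1, also an epithelial gene, and POU2AF1 were over log2 4 in both HUG1N groups, and the summed level of the list was 10.17 to 10.30 in HUG1N shRNA and 9.55 to 9.76 in HUG1N control arrays (log2). In Caco-2 it was 9.45 to 9.56 in shRNA arrays and 9.83 in control arrays, and only SDC1 was over log2 4. Of the immune markers with a probe set, PTPRC, CD3E, ITGAM and CD79A were under log2 4 in all arrays, and LYZ, which gastric epithelium also makes, was over it in all groups. The remaining immune marker, CD14, had 4.85 and 4.37 in Caco-2 control and 2.58 and 3.99 in Caco-2 shRNA arrays, and 2.08 in all HUG1N arrays. Fibroblast markers under log2 4 in all arrays numbered 7 of 9, and endothelial markers 4 of 5. Of the rest, LUM, a collagen-binding proteoglycan, had 7.45 and 7.62 in Caco-2 shRNA arrays and 3.52 and 3.33 in Caco-2 control arrays, and the fibroblast sum was 7.81 to 7.96 in Caco-2 shRNA and 5.86 to 5.95 in Caco-2 control arrays. In HUG1N that sum was 5.77 to 5.98 in shRNA and 5.79 to 5.84 in control arrays. COL1A1, a collagen chain, was over log2 4 in both HUG1N groups and in Caco-2 shRNA arrays. The endothelial marker PECAM1 had 5.07 and 5.51 in Caco-2 control and 4.76 and 3.85 in Caco-2 shRNA arrays, and was under log2 4 in HUG1N. The part of these markers in the results was not tested.

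For 18 members other probe sets also passed the filter, 25 in all. In HUG1N 22 of these moved in the same direction as the one reported and 3 in the other, and none of these 3 had an unadjusted p under 0.05. In Caco-2 20 had the same direction and 5 the other, and those of ERP44, P4HB and SSR1 opposed it at an unadjusted p under 0.05. For the difference between the lines a second probe set of SEL1L did so, and for the controls those of HSPA13 and SEL1L. The direction of change of these 5 genes therefore depends on the probe set chosen. Calls of some other members depended on it as well. With the mean of probe sets, for example, DNAJC10 (0.33, limma adjusted p = 0.0262) and ATF6 (0.42, limma adjusted p = 0.0298) passed in Caco-2. The CANX call between the controls was lost (0.24, limma adjusted p = 0.0667).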

How the data were processed

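The authors deposited log2 values made with GCRMA, per the submitters' processing notes; no version is given in the sources used here. The values were used as deposited, 1 per probe set and array, with a floor of 2.08 at which 28.7 to 29.9% of probe sets of an array lay. Probe sets were named through the platform annotation, with symbols updated by RefSeq; 19070 of 22277 had 1 symbol, 1043 several and 2164 none. The brightest probe set stood for each of 11963 genes, and 7696 genes over log2 4 in at least 2 arrays were tested. Limma 3.58.1 in R 4.3.3 fitted 4 group means (lmFit, eBayes; 4 residual and 2.17 prior degrees of freedom), with Benjamini-Hochberg adjustment over 7696 genes and calls under 0.05. The fit was tested on simulated data. All p-values are two-sided, and 2 arrays a group limit their precision. The members and lists were chosen with earlier results of these data known. Values were given per array for HSPA5, the sensors, XBP1 and up to 6 called members with the largest change per comparison and direction, and up to 2 genes per other list, comparison and direction by smallest p. Alternatives covered filters, scaling, variance, probe sets, a 2-fold minimum, a replicate block and single arrays left out. Same-numbered arrays did not deviate together (correlations -0.063 to 0.066 across genes), so they were not paired.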

Additional observations from a re-analysis of the deposited data

Results flagged for a closer look

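Of the 38 tested members, 18 had shRNA effects that differed between HUG1N and Caco-2 in the limma test of the difference itself (adjusted p under 0.05). The differences, as the HUG1N change minus the Caco-2 change on the log2 scale, were 2.22 for CRELD2, 1.52 for DNAJC10, 1.34 for PDIA4, 1.28 for SDF2L1, 1.22 for WFS1 and 1.04 for MANF. They were 0.77 for PDIA3, 0.67 for SPCS2, 0.63 for HSP90B1, 0.60 for HSPA5, 0.60 for FKBP11, 0.50 for PDIA6, 0.43 for SSR2 and 0.41 for ERP44. In the other direction they were -1.21 for EDEM1, -0.84 for ATF6, -0.71 for ERO1A and -0.56 for DNAJB9. For CRELD2, PDIA4 and MANF the changes were called in opposite directions in the lines. The Caco-2 calls of PDIA4 and MANF were lost with no filter on low values (limma adjusted p = 0.0523 and 0.0634) and when some single arrays were left out. Over all genes 44.9% differed in the same test, so the number of members is near the background, while 14 of the 18 lay toward HUG1N.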

How the results depend on the processing

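The member counts moved with the alternatives. Besides the 2-fold minimum and single arrays left out, these gave 14 to 24 higher and 3 to 4 lower members in HUG1N. They gave 4 to 10 and 5 to 10 in Caco-2, 12 to 15 and 3 to 4 for the difference, and 9 to 10 and 21 to 25 for the controls. All genes called in HUG1N moved as well, from 3012 of 7696 with the line fitted alone to 4060 with trend and robust variance. With a 2-fold minimum, HUG1N kept 3 higher and 1 lower members, Caco-2 1 and 1, the difference between lines 6 and 1, and the control comparison 6 and 5. Of all 7696 genes, 903, 742, 1404 and 3534 were then called in either direction in these comparisons. In Caco-2 the lower count was 5 with no filter on low values, and the higher count 10 with the mean of all probe sets of a gene. Leaving out 1 array at a time gave 3 to 6 higher and 3 to 8 lower members in Caco-2, 13 to 17 and 3 to 5 in HUG1N, 12 to 14 and 3 to 4 for the difference, and 9 to 10 and 20 to 23 for the controls. With the replicate number as a block, the counts were 16 higher and 4 lower in HUG1N, 4 and 6 in Caco-2, 13 and 4 for the difference, and 10 and 23 for the controls. The direction turned for 2 values with the mean of probe sets. HSPA13, called lower between the controls, was called higher (0.75, adjusted p = 5.92e-05), and ERP44 in Caco-2, not called before, was called higher (0.22, adjusted p = 0.0463). The other probe set of each gene moved the other way. Leaving out single arrays also let members pass that had not: 9 in HUG1N, 4 in Caco-2 and 1 each for the difference and the controls. A group left with 1 array is assumed to vary like the others. Single calls held under every alternative, the 2-fold minimum included, for 4 of 21 called members in HUG1N, 2 of 14 in Caco-2, 7 of 18 for the difference and 11 of 33 between the controls. With 2 arrays a group, a member that did not pass is not shown to be unchanged.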
